A study of Mus musculus with 32 samples.

Results

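The transcripts described here are those named after zinc finger protein genes whose symbol is Zfp followed by a digit. A transcript was taken when the gene name in the authors' deposited table of chromatin-enriched RNA (cheRNA), after any class prefix and before the first colon, had that form, and its measured value played no part. The rule found 75 of 5723 listed transcripts, named after 52 genes, all of them protein-coding in the GENCODE annotation. The study compared H1-TKO mouse embryonic stem cells, in which 3 linker histone H1 genes are deleted, with their wild-type (WT) counterpart, both grown in serum and LIF. The series title puts the question of what H1 does to RNA turnover on chromatin. cheRNA, the RNA that stays with insoluble chromatin, was sequenced from 3 TKO and 3 WT samples. R-loops, structures in which RNA pairs with 1 DNA strand and leaves the other unpaired, were mapped by MapR in 2 TKO and 2 WT libraries with a fusion of RNase H and micrococcal nuclease (RNH), and in 1 control library per genotype with the nuclease alone. The labels do not say how many TKO lines or clones were used, or whether replicates came from separate cultures.

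Most Zfp genes encode proteins with C2H2 zinc fingers, short loops held by a zinc ion that read DNA when several stand in a row. A large subfamily also carries a KRAB domain, which brings TRIM28 and SETDB1 to DNA and silences it through H3K9 methylation; in embryonic stem cells this system is best known for silencing endogenous retroviruses and for guarding imprinted regions. Genes of the KRAB subfamily lie in clusters of similar copies that grew by duplication, and the bodies of such clusters carry heterochromatin marks themselves. The symbol does not define a family by descent: Zfp36l1 and Zfp36l2 hold CCCH fingers that bind AU-rich mRNA.

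Each cheRNA value is 1 log2 ratio per transcript as the authors computed it, with no value per sample, no error and no p-value, so these values are described without a test. Listed transcripts have an absolute log2 value of at least 1.00, and a gene that is not listed has no value here. The direction of the ratio is not stated in the sources used here. Gene transcripts of the H1 genes Hist1h1c, Hist1h1d and Hist1h1e were positive in the authors' deposited table. All its values were therefore turned round and are read here as log2 TKO over WT, in which these genes have -3.61, -5.02 and -4.83; this reading is an inference. None of the 8 stem cell markers looked up had a gene transcript in the authors' deposited table; of 16 markers of other cell types, Pax6, Tubb3 and Vim had one, each higher in TKO, and the part of other cells in the results below was not tested. The files hold no expression levels with which the cell type could be checked further. The RNH peak lists held 25392 and 6458 peaks in TKO and 22336 and 6612 peaks in WT, so the list of replicate 1 was the longer in both genotypes.

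The promoters of 5 members show the start sites that the results below refer back to. They are 300 bases each, from 250 bases before to 50 after a RefSeq transcription start (GRCm38.p6, the same chromosomes as the mm10 build of the files), on the strand of the gene, with CpG dinucleotides in capitals. Zfp260, Zfp72 and Zfp536 were taken because their transcripts had the highest log2 values; Zfp423, the longest lower gene transcript, and Zfp142, with R-loop peaks in every library, were added after their values had been seen.
Zfp260 (chr7:30094826-30095125, plus strand): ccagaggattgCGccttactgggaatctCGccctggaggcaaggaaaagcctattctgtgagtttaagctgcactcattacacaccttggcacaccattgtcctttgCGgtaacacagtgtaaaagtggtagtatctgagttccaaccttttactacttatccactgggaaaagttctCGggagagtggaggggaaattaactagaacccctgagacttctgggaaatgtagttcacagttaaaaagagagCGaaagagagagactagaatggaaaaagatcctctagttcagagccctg
Zfp72 (chr13:74390780-74391079, minus strand): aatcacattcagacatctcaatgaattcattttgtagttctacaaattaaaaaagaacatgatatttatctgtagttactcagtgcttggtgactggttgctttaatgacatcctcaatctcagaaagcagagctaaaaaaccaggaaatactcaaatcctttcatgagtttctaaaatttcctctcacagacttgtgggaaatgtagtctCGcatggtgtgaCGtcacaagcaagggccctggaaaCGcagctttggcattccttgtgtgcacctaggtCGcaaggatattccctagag
Zfp536 (chr7:37769703-37770002, minus strand): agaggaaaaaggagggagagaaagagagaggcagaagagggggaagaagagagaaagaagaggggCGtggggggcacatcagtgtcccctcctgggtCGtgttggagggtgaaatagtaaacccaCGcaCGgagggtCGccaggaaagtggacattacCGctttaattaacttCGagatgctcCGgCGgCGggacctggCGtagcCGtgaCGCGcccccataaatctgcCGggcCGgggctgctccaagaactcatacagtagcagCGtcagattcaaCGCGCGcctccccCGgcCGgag
Zfp423 (chr8:87959546-87959845, minus strand): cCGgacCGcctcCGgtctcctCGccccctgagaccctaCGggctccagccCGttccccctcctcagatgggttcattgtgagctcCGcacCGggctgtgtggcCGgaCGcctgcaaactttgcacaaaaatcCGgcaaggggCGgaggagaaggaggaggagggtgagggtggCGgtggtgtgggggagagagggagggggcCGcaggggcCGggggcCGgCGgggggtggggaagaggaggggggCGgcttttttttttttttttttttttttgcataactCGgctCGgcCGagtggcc
Zfp142 (chr1:74587979-74588278, minus strand): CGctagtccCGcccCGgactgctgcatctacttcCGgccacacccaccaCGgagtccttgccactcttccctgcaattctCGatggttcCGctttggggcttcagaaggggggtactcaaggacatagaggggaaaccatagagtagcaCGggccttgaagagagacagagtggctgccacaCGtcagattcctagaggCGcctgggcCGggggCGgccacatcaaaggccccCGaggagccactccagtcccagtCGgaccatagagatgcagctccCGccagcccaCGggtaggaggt
The printed promoters of Zfp260 and Zfp72 were poor in CpG, with 5 and 4 sites and a GC content of 45.7% and 40%. Those of Zfp536, Zfp423 and Zfp142 held 22, 21 and 16 CpG sites. Another RefSeq start of Zfp72 and of Zfp423, not printed, had 1 and 7 sites. The Zfp72 transcript with the high value lay within the gene on the opposite strand, outside the printed window. RefSeq promoters were matched for 39 of the 52 names, with a median of 16 CpG sites, against 13 over 325 coding Zfp genes and 14 over 16522 coding genes.

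Of the 75 Zfp transcripts in the authors' deposited table, 52 were higher and 23 lower in TKO than in WT. The share of 69.3% higher stood beside 60.1% of all 5723 listed transcripts, of which 39.9% were lower. Gene transcripts, of which 45% were higher over the whole table, made up 20 of the 75 and 2904 of the 5723. Of all transcripts of the other classes 75.6% were higher, so the 2 shares rest on unlike mixes of class. Without chromosome 11, 44 of 67 Zfp transcripts (65.7%) were higher, against 57.1% of the remaining table. The median log2 value was 1.39, against 1.38 for the whole table, and the values ran from 6.05 to -4.85. Among the higher transcripts the median was 1.88 for Zfp names and 2.24 for all names; among the lower ones it was -1.72 and -1.74. Of 394 coding Zfp genes 52 (13.2%) had a transcript of any class in the table, against 15.4% of 21951 coding genes; a higher one was listed for 9.39% of Zfp genes and 9.82% of all, and a lower one for 4.06% and 6.12%.

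**Figure D1:**
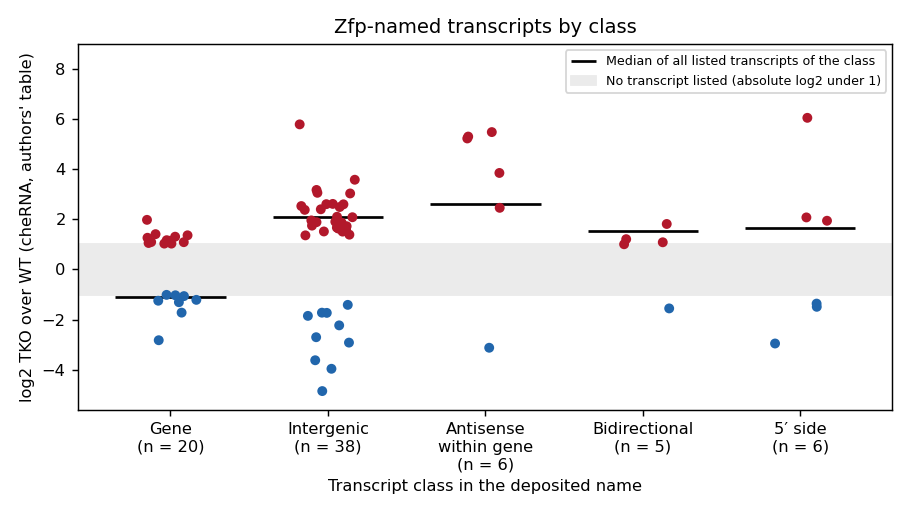
Each point is a Zfp-named transcript, with its class on the x axis and the authors' log2 value, read as TKO over WT, on the y axis; red points are higher and blue points lower in TKO. Black lines are medians of all listed transcripts of the class: for gene transcripts the line lies at -1.09, while 12 of the 20 Zfp points lie above 0. No listed value has an absolute log2 under 1.00, so a median takes the sign of the larger group.

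A gene transcript of 20 Zfp genes was in the authors' deposited table, and 12 of them (60%) were higher in TKO, against 45% of all 2904 gene transcripts. The median was 1.04 for Zfp gene transcripts and -1.09 for all. Since every listed value has an absolute log2 of at least 1.00, each median takes the sign of the larger group. The gap between the 2 medians is therefore not a difference in size. All 6 Zfp gene transcripts on chromosome 11 were higher, as were 88.4% of all transcripts listed there. Without chromosome 11, 6 of 14 Zfp gene transcripts (42.9%) were higher. The 45% includes chromosome 11, and the share of all gene transcripts without it was not computed. As a share of annotated coding genes, a gene transcript of either direction was listed for 5.08% of Zfp genes and 8.91% of all genes, a higher one for 3.05% and 4.14%, and a lower one for 2.03% and 4.79%.

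The 12 higher gene transcripts had small values, between 1.03 and 1.98 in the authors' deposited table. Zfp287, a protein with a SCAN domain, which pairs with other SCAN proteins, had the highest at 1.98, a ratio of 3.95, and its intergenic-named and 5′ transcripts had 2.60 and 2.08. Zfp750, a regulator of epidermal differentiation, followed at 1.41, Zfp74 at 1.36, Zfp300 at 1.31 and Zfp672 at 1.27. Zfp536, a repressor of neuronal differentiation, had 1.17. Zfp286 had 1.15, Zfp786 1.10, Zfp39 1.09 and Zfp521 1.06 in the same table; Zfp521 is a regulator of early neural differentiation. Zfp3 and Zfp870 had 1.03 each. Zfp287, Zfp750, Zfp672, Zfp286, Zfp39 and Zfp3 are the 6 on chromosome 11.

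The 8 lower gene transcripts had a median width of 55208.5 bases, against 16098.5 for the 12 higher ones, and ran from 8532 bases (Zfp560) to 305562 (Zfp423). Over the whole table lower gene transcripts were also the longer, with a median of 22364 bases, against 13475 for higher ones. Zfp423, a many-fingered regulator of neural and adipocyte precursors, was lowest at -2.82 in the authors' deposited table, a ratio of 7.08 in favour of WT. It was followed by Zfp532 at -1.72, Zfp185 at -1.31, Zfp800 at -1.25, Zfp560 at -1.21, Zfp395 at -1.06, Zfp592 at -1.03 and Zfp704 at -1.01. In human cells the proteins of ZNF532 and ZNF592 bind the chromatin reader ZMYND8. Zfp185 is a LIM-domain protein of the actin cytoskeleton and holds no C2H2 pattern.

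The close relatives Zfp423 and Zfp521, each with 28 C2H2 patterns in its protein, went opposite ways in the authors' deposited table, with -2.82 for Zfp423 and 1.06 for Zfp521. All 3 Zfp423 transcripts were lower in TKO. Besides the gene transcript of 305562 bases (chromosome 8, 87654034 to 87959595, minus strand), the 5′ transcript just upstream of it had -2.95 and the intergenic-named transcript on the plus strand, which spans the start site, -2.92. The 3 values were close to each other, on both strands of the start printed above. R-loop peaks at a Zfp423 promoter were found in replicate 1 of both genotypes, with a fold enrichment of 3.10 in TKO and 2.87 in WT, and none lay within 1 kb of the RefSeq start printed above.

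**Figure D2:**
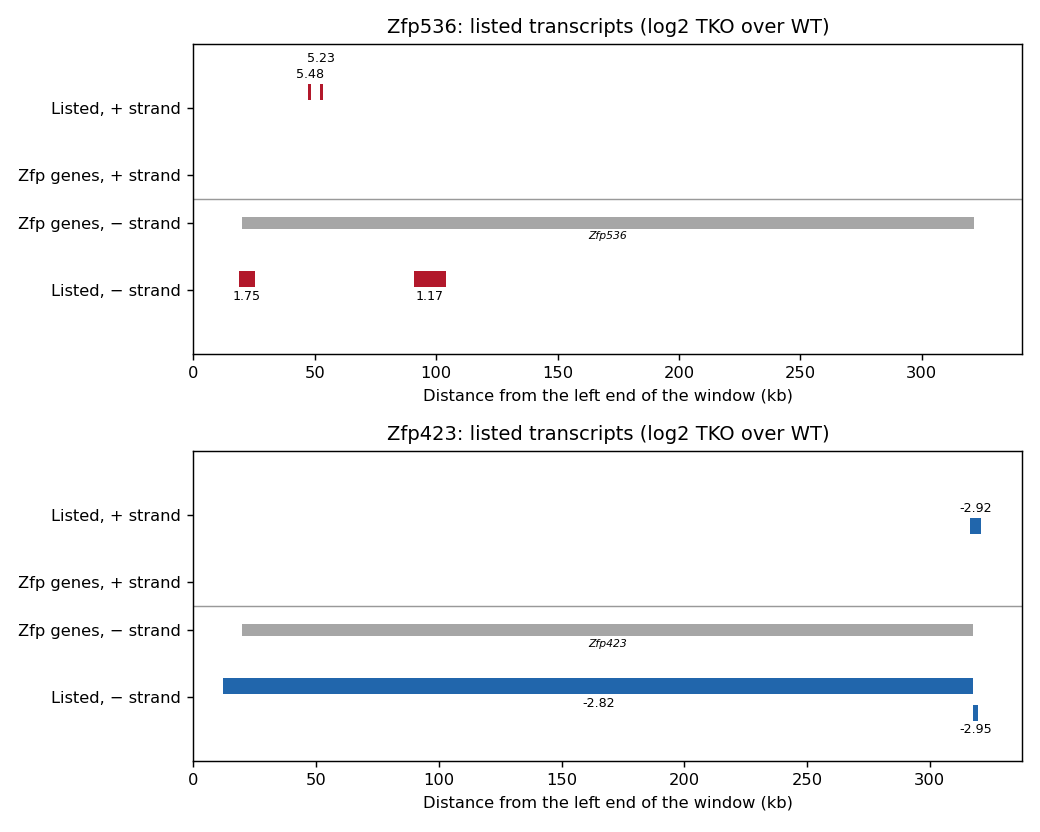
Gene bodies (grey) and listed transcripts (red, higher in TKO; blue, lower) at Zfp536 and Zfp423, by strand, with the distance from the left end of the window in kb on the x axis and the authors' log2 value beside each transcript. All 4 Zfp536 transcripts are above 0 and all 3 Zfp423 transcripts below 0.

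Zfp536 had 4 transcripts, all higher in TKO, and they differed far more among themselves. The pair antisense to the gene had 5.48 and 5.23 in the authors' deposited table, ratios of 44.7 and 37.5, while the sense transcripts had 1.75 (intergenic-named, at the 3′ end) and 1.17 (gene). The antisense pair was short, 1500 and 1088 bases, and lay within the gene, far from the promoter printed above. An R-loop peak at an annotated Zfp536 start was present in TKO replicate 1, at a fold enrichment of 3.62, and in no other library; none lay within 1 kb of the RefSeq start printed above.

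Of 55 Zfp transcripts of the other classes 40 were higher in TKO (72.7%), against 75.6% of all 2819. Intergenic-named transcripts made up 38, of which 28 were higher (73.7%, against 74% of all), with a median of 1.76, against 2.09 for all. Of 6 antisense transcripts 5 were higher (83.3%, against 86.6%), with a median of 4.54, against 2.62 for all antisense transcripts. Of 5 bidirectional transcripts 4 were higher (80%, against 85.4%). Of 6 on the 5′ side 3 were higher (50%, against 66.4%), with a median of 0.29, against 1.66 for all. That 0.29 falls between the higher and the lower values, where no transcript is listed. The names of intergenic transcripts say little about place: 10 of the 38 overlapped the named gene, and the others lay a median of 63694.5 bases away and at most 803169.

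The highest Zfp value in the authors' deposited table was 6.05, a ratio of 66.4, for the 5′ transcript of Zfp260 (chromosome 7, 30093051 to 30095074, plus strand). It ran over the promoter printed above and ranked 100 from the top of the whole table. An R-loop peak inside it was found in WT replicate 1, with its summit 266 bases upstream of the start and a fold enrichment of 2.61, and in no other library. The second, at 5.79, was an intergenic-named transcript of 777 bases that overlaps Zfp72 on the opposite strand. Zfp82, a KRAB protein, had an antisense transcript at 5.30, and Zfp142, whose 36 C2H2 patterns were the most of any Zfp protein, an antisense transcript at 3.85. All of these were short, between 777 and 2546 bases.

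Zfp462, which restrains differentiation genes in embryonic stem cells, had the most transcripts. All 5 were intergenic-named, lay between 12538 and 123682 bases from the gene and were higher in TKO, with 1.77, 1.63, 1.36, 1.52 and 3.58 in the authors' deposited table. Its gene transcript was not listed. Zfp516, a transcription factor of brown fat, had a transcript at 2.53 that lay 358241 bases downstream. Zfp366, known from dendritic cells as DC-SCRIPT, had 3 transcripts upstream of the gene at 3.03, 2.62 and 2.61, the nearest of them 54685 bases away. Zfp53, a KRAB gene, had a transcript at 3.06 that lay 2185 bases downstream.

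The lowest Zfp value in the authors' deposited table was -4.85, for an intergenic-named transcript 48701 bases from Zfp97. It ranked 47 from the bottom of the whole table. The next, at -3.96, was a transcript of 367 bases named after Zfp386 that lies 803169 bases from that gene, so its name carries little information on Zfp386. The 3 transcripts named after Zfp648, all upstream of the gene by 60056 to 88862 bases, had -3.62, -2.23 and -1.73. The 3 of Zfp704 had -3.12 (antisense), -1.41 (intergenic-named, over the gene's start) and -1.01 (gene). A transcript named after Zfp868 had -1.85 and one named after Zfp947 -1.72, both intergenic-named.

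The mRNA decay genes Zfp36l1 and Zfp36l2, whose proteins held 2 CCCH patterns each and no C2H2 pattern, had no gene transcript listed. Zfp36l2 had a transcript at -2.70 in the authors' deposited table, 138048 bases downstream of the gene. Zfp36l1 was the only Zfp name with both directions, with 3.17 for a transcript 87475 bases downstream and -1.36 for the 5′ transcript, which abuts the gene. Of 12 Zfp names with several transcripts, 7 had all higher, 4 all lower and 1 both; the share with 1 direction was 91.7%, against 88.8% of 1130 names in the table. Zfp42 (Rex1, a marker of naive stem cells), Zfp57 and Zfp445 (guardians of imprinted regions), Zfp809 (which brings TRIM28 to proviral DNA) and Zfp281 were not listed.

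Transcripts named after genes with a KRAB pattern were higher in TKO in a larger share than those of other Zfp genes. A KRAB pattern was found in the translated coding sequence of 196 of 394 coding Zfp genes. KRAB domains that depart from the pattern are missed. KRAB genes are therefore those with the pattern here and below, and the others may include genes of the KRAB subfamily. Of 25 transcripts named after KRAB genes in the authors' deposited table, 21 were higher in TKO (84%), against 31 of 50 named after Zfp genes without the pattern (62%) and 60.1% of the whole table. Among gene transcripts 6 of 7 KRAB ones (85.7%) and 6 of 13 other Zfp ones (46.2%) were higher, against 45% over the whole table. In the other classes 15 of 18 (83.3%) and 25 of 37 (67.6%) were higher, against 75.6% over the whole table. The 60.1% pools the classes in another mix. The sizes did not differ the same way, since the median was 1.36 for KRAB names and 1.46 for the others. KRAB genes were named less often, 21 of 196 (10.7%), against 31 of 198 (15.7%) of the others. None of these differences was tested.

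**Figure D3:**
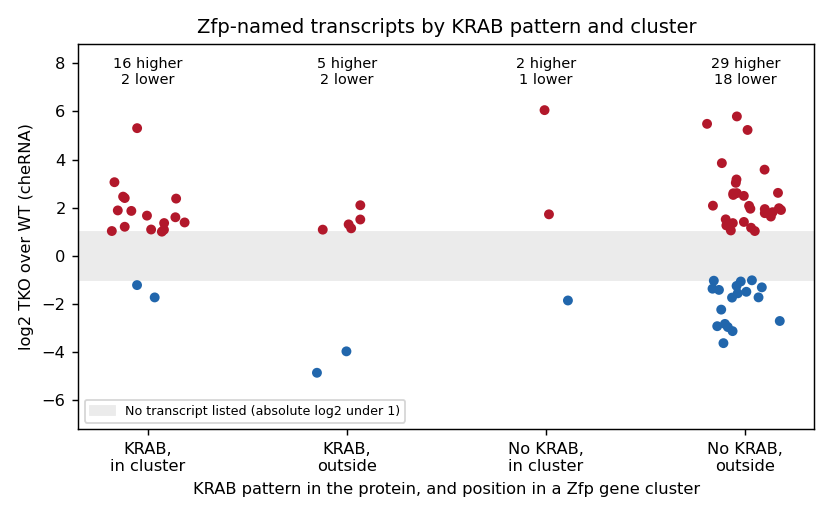
Each point is a Zfp-named transcript, grouped on the x axis by a KRAB pattern in the protein and by position in a cluster of Zfp genes, with the authors' log2 value, read as TKO over WT, on the y axis; red points are higher and blue points lower in TKO. Of the KRAB transcripts in clusters 16 are higher and 2 lower. Genes without the pattern and outside clusters hold 47 of all 75 transcripts, 18 of the 23 lower and 29 of the 52 higher ones.

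KRAB and clustering went together. Of 394 coding Zfp genes 208 lay in 23 clusters, defined as 4 or more Zfp genes with neighbouring starts within 500 kb. In clusters 18 of 21 transcripts were higher in TKO (85.7%), against 34 of 54 outside (63.0%) and 60.1% of the whole table. Gene transcripts made up 4 of the 21 in clusters, 16 of the 54 outside and 2904 of all 5723. Over all names 45% of gene transcripts and 75.6% of the other classes were higher. The 3 shares therefore rest on unlike mixes of class. Of the gene transcripts, 3 of 4 in clusters and 9 of 16 outside were higher. Of the 208 clustered genes 17 were named in the authors' deposited table (8.17%), against 35 of 186 outside (18.8%) and 15.4% of all coding genes. These differences were not tested. Of the 18 KRAB transcripts in clusters 16 were higher, and of the 7 outside, 5. Clustered Zfp genes are near copies of each other, and how the authors' counting treated reads that fit several copies is not given in the sources used here, so values of single clustered genes are uncertain.

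The cluster on chromosome 7 from 29768552 to 30169750 held 15 Zfp genes and the most listed transcripts. All 6 were higher in TKO in the authors' deposited table, on both strands. Zfp74, a KRAB gene, had a gene transcript at 1.36, an intergenic-named transcript over the gene on the other strand at 1.87 and an antisense transcript at 2.46. Zfp383 had 1.89 for a transcript on the opposite strand, and the highest values of the cluster were the 5.30 of Zfp82 and the 6.05 of Zfp260 given above. Zfp568, which lies between Zfp74 and Zfp82 and represses a placental Igf2 transcript, was not listed. The cluster on chromosome 13 from 67038596 to 67827002, with 23 Zfp genes, had 3 listed transcripts, all higher. They were named after Zfp458 (intergenic-named, 2.40), Zfp748 (bidirectional, 1.09) and Zfp65 (bidirectional, 1.01). All 3 lay on the strand opposite the named gene, and none was a gene transcript. In the cluster on chromosome 17 from 21008903 to 23599487, also of 23 genes, the listed transcripts were all intergenic-named and lay outside the named genes. That of Zfp53 (3.06) and both of Zfp945 (2.38 and 1.60) were higher and that of Zfp947 (-1.72) was lower. Of the 23 clusters 15 had no listed transcript.

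**Figure D4:**
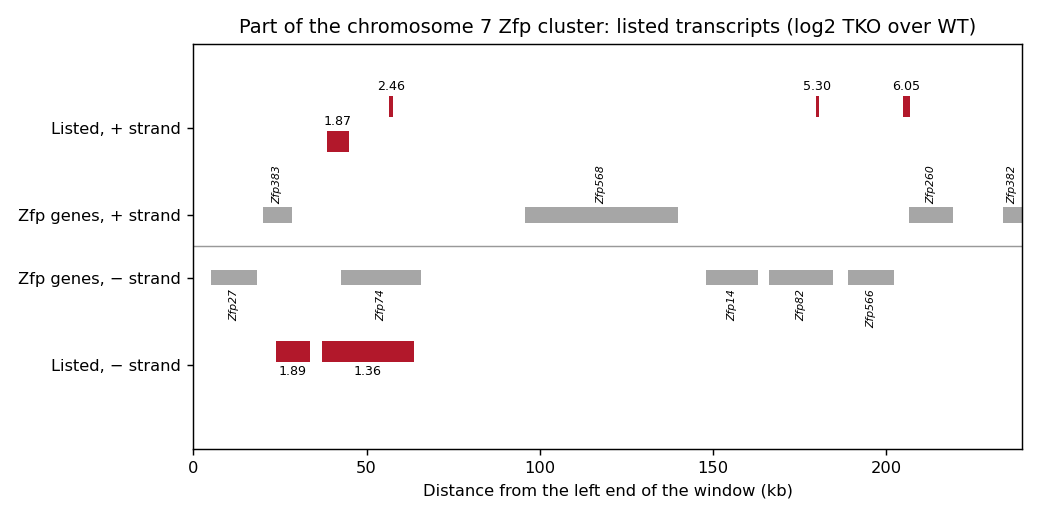
Part of the chromosome 7 cluster, with coding Zfp genes in grey and listed transcripts in red (higher in TKO) by strand, the distance from the left end of the window in kb on the x axis and the authors' log2 value beside each transcript. The 6 transcripts have values from 1.36 to 6.05 and lie on both strands.

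By chromosome, 12 of 13 Zfp transcripts on chromosome 7 were higher in TKO, where 58.8% of all listed transcripts were. All 8 on chromosome 11 and all 8 on chromosome 13 were higher as well, where 88.4% and 73.7% of all listed transcripts were. On chromosome 8 all 4 Zfp transcripts, 3 of Zfp423 and 1 of Zfp868, were lower, against 50.2% of all listed there being higher, and on chromosome 3 all 3 were lower, those of Zfp704. Higher Zfp transcripts formed 28 distinct pairs with listed transcripts of another name within 100 kb, 8 of them between 2 Zfp transcripts, and in all 28 both were higher. Of all pairs in the table with a higher member, both were higher in 77.0%. On chromosome 11 lay 12 of the 28, where both were higher in 90.5% of such pairs. Lower Zfp transcripts formed 5 such pairs, at Zfp592 and Zfp185, and in none of them was the neighbour lower, against 64.1% of all pairs with a lower member. These shares were not tested.

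Among other zinc finger names the share was lower over all classes and in gene transcripts, but not in the other classes. Of 20 transcripts in the authors' deposited table named after Zbtb, Zscan, Zkscan or Zc3h genes, 10 were higher and 10 lower in TKO (50% higher, against 60.1% of the whole table), and of their 9 gene transcripts 2 were higher (22.2%, against 45%). Of their 11 transcripts of the other classes 8 were higher (72.7%), the same share as for Zfp names. Of 33 genes through which KRAB proteins silence DNA, 8 were named, against 15.4% of all coding genes. A gene transcript was higher for 1 of them and lower for 4, against 4.14% and 4.79% of all coding genes. Gene transcripts were lower in TKO for Ehmt2 (-1.38) and Suv39h1 (-1.06), which are H3K9 methyltransferases, Dnmt3l (-1.07), a partner of DNA methyltransferases, and Smarcad1 (-1.09), a chromatin remodeller, in the authors' deposited table. That of Chd3, a NuRD remodeller on chromosome 11, was higher at 1.96. Transcripts of other classes were higher for Smarcad1 (4.82 and 2.20), Atf7ip (2.95), Chd3 (2.38) and Morc3 (1.27) and lower for Trim24 (-1.24). Trim28 and Setdb1 had none.

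R-loop peaks were frequent at Zfp promoters in both genotypes. A peak lay within 1 kb of an annotated start of 282 and 84 of 394 coding Zfp genes in the 2 TKO libraries (71.6% and 21.3%), and of 251 and 61 in the 2 WT libraries (63.7% and 15.5%), after removal of peaks that overlap a nuclease-only peak. Over all 21951 coding genes the shares were 50.1% and 14.5% in TKO and 45% and 11.4% in WT. The Zfp share was thus 1.43, 1.47, 1.42 and 1.36 times the share of all coding genes, a ratio above 1 in 4 of 4 libraries that was not tested. The number of annotated starts was alike, with a median of 3 per gene in both sets.

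**Figure D5:**
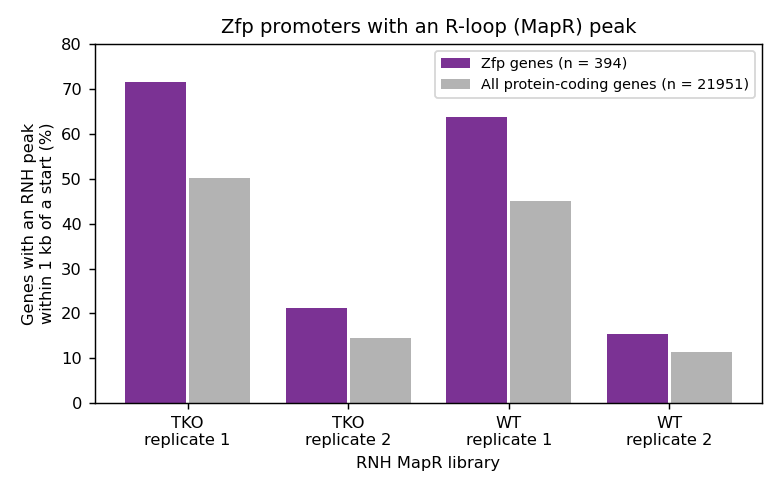
Share of coding Zfp genes (purple) and of all coding genes (grey) with an RNH peak within 1 kb of an annotated start, in percent on the y axis, for the 4 RNH libraries; each bar is 1 library. The purple bar is the higher in all 4 libraries, at 71.6% and 21.3% in TKO and 63.7% and 15.5% in WT.

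Between genotypes the promoter shares differed by less than between the replicates of a genotype. The mean for Zfp genes was 46.4% ± 35.5 in TKO and 39.6% ± 34.1 in WT (SD, n = 2 each), a difference of 6.85 percentage points (two-sided exact permutation test, p = 0.67, where the smallest p that 2 against 2 libraries can give is 0.33). The lists of replicate 1 were the longer in both genotypes, and a split by replicate gave a larger difference than the split by genotype. The p-value could therefore not reach 0.33 here, and the test cannot decide whether the genotypes differ. Over all coding genes the difference was 4.10 points. Within replicate 1 the Zfp share was 71.6% in TKO and 63.7% in WT, and within replicate 2 it was 21.3% and 15.5%. With lists of equal length the difference was 1.78 points. A peak in both TKO libraries and in no WT library was found at 2 Zfp genes (0.51%, against 0.56% of all coding genes), and the converse at none (against 0.36%). The other counts were 37 genes with a peak in all 4 libraries (9.39%, against 6.57% of all coding genes) and 314 with one in any (79.7%, against 56.3%).

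KRAB genes had a lower share with a promoter peak than other Zfp genes in 4 of 4 libraries, which was not tested. The shares were 66.3% and 15.3% in TKO and 63.3% and 6.63% in WT for 196 KRAB genes, and 76.8% and 27.3% in TKO and 64.1% and 24.2% in WT for the 198 others. Zfp genes with peaks in all 4 libraries and a RefSeq promoter had a median GC content of 59.7% and 19 CpG sites in 300 bases (n = 31), those with no peak 50.7% and 9.5 sites (n = 64). Zfp142 was among the genes with peaks in all 4 libraries. Its peaks had a fold enrichment of 4.53 and 5.58 in TKO and 3.96 and 4.31 in WT, with summits between 234 bases before and 185 bases after the start printed above. Zfp868 was the other Zfp gene of the authors' deposited table with a promoter peak in all 4 libraries, at 6.67 and 6.68 in TKO and 7.42 and 5.79 in WT.

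Of the 52 named Zfp genes, 40 and 10 had a promoter peak in the TKO libraries (76.9% and 19.2%) and 32 and 8 in the WT libraries (61.5% and 15.4%). Over all 3374 coding genes named in the authors' deposited table the shares were 62.8% and 16.2% in TKO and 55.4% and 12.7% in WT. No peak in any library was found at 9 of the 52 (17.3%, against 27.8%). Of the 12 Zfp genes with a higher gene transcript 2 had a promoter peak in both TKO libraries (16.7%, against 12.5% of all 909 such genes) and none in both WT libraries (against 6.82%). These were Zfp672 and Zfp74. The fold enrichment at Zfp672 was 5.41 and 4.20 in TKO and 4.02 in WT replicate 1, and at Zfp74 4.68 and 3.83 in TKO and 3.68 in WT replicate 1, with no peak in WT replicate 2. Of the 8 Zfp genes with a lower gene transcript, Zfp532 had a peak in both WT libraries (12.5%, against 12.7% of all 1052 such genes), at 2.65 in TKO replicate 1 and 3.05 and 4.04 in WT. No peak was found at the promoters of Zfp704, Zfp648, Zfp366 or Zfp36l1 in any library.

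Over the listed Zfp transcripts themselves, 27 and 7 of 75 met an RNH peak in TKO (36% and 9.33%) and 28 and 8 in WT (37.3% and 10.7%). The means were 22.7% ± 18.9 in TKO and 24% ± 18.9 in WT (SD, n = 2 each), a difference of -1.33 points (two-sided exact permutation test, p = 0.67). Here too a split by replicate gave a larger difference than the split by genotype, so this test cannot decide either. For all listed transcripts the shares were 35.1% and 10% in TKO and 33.6% and 9.26% in WT. The 23 lower Zfp transcripts met a peak in 52.2% and 8.70% of cases in TKO and in 60.9% and 21.7% in WT; the 52 higher ones in 28.8% and 9.62% in TKO and in 26.9% and 5.77% in WT. Over the whole table the lower transcripts met one in 38.8% and 8.88% in TKO and 40.7% and 11.9% in WT, and the higher ones in 32.6% and 10.8% in TKO and 28.9% and 7.54% in WT. The higher antisense transcripts of Zfp536, Zfp82 and Zfp142 and the transcript within Zfp72 met no peak in any library. All antisense transcripts of the table met one in 16.1% and 4.83% of cases in TKO and in 18.2% and 4.02% in WT.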

How the data were processed

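The members and the gene lists were chosen with earlier results of these data known. The submitters' processing notes name the build mm10 and, for cheRNA, DESeq2, TopHat2, bedtools, BWA and SAMtools, and for MapR, MACS2 and BWA, with no versions or options. The authors deposited 1 log2 fold change per listed cheRNA transcript, without a p-value. For every MapR library the authors deposited 1 peak list, with a fold enrichment (a ratio over local background), −log10 p, −log10 q and a score per peak; the fold enrichments printed are the authors'. Read depth is unknown, since the files hold no counts.

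Classes come from the prefixes of the deposited names. Members were matched to GENCODE M21 by symbol. RNH peaks that overlap an MNase-only peak of either genotype were removed; an overlap is at least 1 bp, and a promoter is 1 kb on both sides of an annotated start. Shares of genes or transcripts with a peak were compared between genotypes by a two-sided exact permutation test over libraries. Overlap counting was checked on simulated intervals, and the permutation arithmetic on a made-up case with a known answer, not on simulated libraries. The p-values measure the spread between these libraries, which may be technical. KRAB, SCAN, C2H2 and CCCH patterns were counted in the longest translated GENCODE coding sequence of each gene, since no protein table was used here. Clusters are 4 or more coding Zfp genes with neighbouring starts within 500 kb. Sequences are from RefSeq. Named are the 12 highest and 12 lowest transcripts, names with both directions or with 3 or more transcripts, listed members of the known-role and KRAB silencing lists, and gene transcripts with promoter peaks in both libraries of a genotype. The other gene transcripts and the members of 3 clusters were named after their values had been seen, as were the genes without a promoter peak. Alternatives covered chromosome 11, repeated names, a stricter fold, distance to the named gene, peak threshold, list length, control peaks, summits, window size, left-out libraries and a replicate block; alternatives for KRAB names, clusters and chromosome 7 were added after the data had been seen. Python 3.11.15, pandas 2.3.3, NumPy 2.4.6 and matplotlib 3.10.9 were used. Samples of the other assays were not analysed here.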

Additional observations from a re-analysis of the deposited data

How the results depend on the processing

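The share of Zfp transcripts higher in TKO was recomputed without chromosome 11, without chromosome 7 and with 1 transcript per name and class. It was also recomputed within 10 kb of the named gene and at an absolute log2 value of at least 2. It lay between 64.5% and 70.6%. Under the alternatives for KRAB names and clusters the shares lay between 77.8% and 84% and between 76.9% and 84.2%. Among all listed transcripts the share was computed only without chromosome 11, where it was 57.1%, against 65.7% for Zfp names. Under the other settings it was not computed, so these ranges do not show whether an excess over all names held. The share of higher Zfp gene transcripts fell from 60% to 42.9% without chromosome 11, and to 0% at an absolute log2 of at least 2, where Zfp423 alone was left. The share of all gene transcripts under these settings was not computed. The median log2 moved to 2.48 at that stricter fold, by construction.

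The TKO minus WT difference in promoter share ranged from -18.3 to 32.0 points when each RNH library was left out in turn. That over listed transcripts ranged from -14.7 to 12. Each such set compares a single library with a mean over both replicates, whose lists differ in length, so these ranges cannot separate genotype from replicate. Within replicate 1 and replicate 2 the promoter difference was 7.87 and 5.84 points, and the transcript difference was -1.33 in each. With a peak's summit required inside, the transcript difference was 0.667 points; at −log10 q of at least 5 the differences were 2.92 and -2, and at equal list lengths 1.78 and 0. The labels do not say that replicate numbers pair the samples; with the number as a replicate block the differences were 6.85 and -1.33 points, unchanged since the block does not alter a mean over pairs. Peak lists of unequal length and the absence of sample values for cheRNA limit precision.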

Other observations

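Short motifs in the 300-base RefSeq promoters were counted on either strand, and no motif is contained in another. CCGGAAG, the core of the ETS family site, was found in 21.2% of 325 coding Zfp promoters and 12.3% of 16522 coding promoters. CCAAT was found in 48.6% and 38.7%, and TATAAA in 5.85% and 12.9%. Of the 39 promoters of genes named in the cheRNA table, 28.2% held CCGGAAG, 51.3% CCAAT and 7.69% TATAAA. Of the promoters printed above, that of Zfp142 held CCGGAAG, and those of Zfp260, Zfp72, Zfp536 and Zfp423 held none of the 3. These are matches of letters in 1 window per gene, described without a test.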
